A study of Homo sapiens with 18 samples.

Results

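Oxidative phosphorylation subunit genes were the nuclear genes of the array platform whose symbols name subunits of respiratory complexes I to V. They were taken by symbol alone (the NDUFA, NDUFB, NDUFC, NDUFS and NDUFV series, the SDH and UQCR genes, CYC1, COX4 to COX8 and ATP5) without pseudogenes. A total of 82 of the 18132 genes measured met this rule, 35 of complex I, 3 of complex II, 8 of complex III, 17 of complex IV and 19 of complex V. By symbol these include ATP5IF1, which encodes an inhibitor of the ATP synthase, and COX7A2L, which encodes a factor that joins complexes III and IV, so both are described as regulators. The series comprised 18 arrays from WiDr and HT29, established lines of human colorectal cancer, with 3 arrays in each of 6 groups: WiDr with AZ628, WiDr with vehicle, WiDr transduced with a short hairpin RNA (shRNA) against IKKα, WiDr transduced with a control shRNA, HT29 with AZ628 and HT29 with vehicle. AZ628 is an inhibitor of RAF kinases, and IKKα is a kinase of the NF-κB pathway encoded by CHUK. WiDr cells are held to derive from HT29, so both lines share an origin. The labels give no dose or duration of AZ628, no sequence of the shRNAs, and do not say whether replicate arrays stand for separate cultures, so the spread behind every p-value may be technical.

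The mitochondrial respiratory chain passes electrons from NADH through complex I, or from succinate through complex II, to ubiquinone, then through complex III and cytochrome c to complex IV, where oxygen is reduced. Complexes I, III and IV pump protons, and complex V, the ATP synthase, lets them flow back through a rotating ring of c subunits and makes ATP in its F1 head. Most subunits are encoded in the nucleus and the others in mitochondrial DNA, so complexes are built from both genomes with the help of assembly factors. Several subunits of complex IV exist in a common form and in forms restricted to muscle, lung or testis.

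Values are log2 signals of the deposited normalized table, and each gene was read from its brightest probe set over the 18 arrays. Where another processing ended a call, it is given beside it: the averaged reading is a mean over the probe sets of the gene, and the restricted reading leaves out probe sets that can bind several transcripts, which often leaves a dimmer one. Members were among the brighter genes: 74 of 82 had a mean log2 signal of 10 or more, against 14.7% of all genes, and member means ran from 2.61 to 13.87. Of the remaining 8 members, 7 had means under 7, and all 7 were tissue-restricted isoform genes. Arrays of the same group correlated at 0.9971 to 0.9985 over all genes, and arrays of different groups at 0.9555 to 0.9963. The colorectal epithelial markers (9 measured) had a median mean signal of 12.34, with a range from 5.57 to 14.20, so not all of them were bright. The 5 fibroblast markers reached at most 5.61, the 3 endothelial markers 6.21 and the 3 striated muscle markers 6.45. Blood markers (4 measured) had a median of 4.82, with LYZ, which intestinal epithelium also expresses, at 13.84. CHUK read 7.68, 7.23 and 7.65 with IKKα shRNA, against 9.68, 9.45 and 9.78 with control shRNA, so the targeted transcript was lower in every knockdown array (log2 change -2.12, SE 0.12, adjusted p = 4.11e-10). In bulk RNA, fewer cells that express a gene and less of its RNA per cell cannot be told apart.

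The promoters of 4 members are shown because 2 of them, ATP5MC1 and ATP5MC2, encode the same mature subunit of the c ring and moved in opposite directions with AZ628, while NDUFB4 and SDHA moved in opposite directions with IKKα shRNA. Each is the stretch of 200 bases before the transcription start, from the RefSeq table of build GRCh38.p14: chr17:48892587-48892786 on the plus strand for ATP5MC1, chr12:53676084-53676283 on the minus strand for ATP5MC2, chr3:120596136-120596335 on the plus strand for NDUFB4 and chr5:218120-218319 on the plus strand for SDHA. Capitals mark CCAAT boxes in ATP5MC1 (4) and matches to the NRF1 pattern (GCGC, any base, then TGCGC, which reads GCGCA, any base, then GCGC on the other strand) in NDUFB4 (2) and SDHA (4).
ATP5MC1: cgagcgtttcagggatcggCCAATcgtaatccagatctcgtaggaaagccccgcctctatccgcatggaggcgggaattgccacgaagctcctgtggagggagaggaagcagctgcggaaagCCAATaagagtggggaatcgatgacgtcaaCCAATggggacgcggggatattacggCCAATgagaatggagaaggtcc
ATP5MC2: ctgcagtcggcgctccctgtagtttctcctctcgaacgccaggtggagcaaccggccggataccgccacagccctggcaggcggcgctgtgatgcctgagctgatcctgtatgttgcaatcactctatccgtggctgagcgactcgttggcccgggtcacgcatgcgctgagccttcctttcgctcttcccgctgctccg
NDUFB4: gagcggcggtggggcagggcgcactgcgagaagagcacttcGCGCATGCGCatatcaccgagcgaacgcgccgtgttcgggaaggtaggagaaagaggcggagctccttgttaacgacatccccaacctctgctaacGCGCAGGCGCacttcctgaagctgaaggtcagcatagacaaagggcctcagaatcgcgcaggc
SDHA: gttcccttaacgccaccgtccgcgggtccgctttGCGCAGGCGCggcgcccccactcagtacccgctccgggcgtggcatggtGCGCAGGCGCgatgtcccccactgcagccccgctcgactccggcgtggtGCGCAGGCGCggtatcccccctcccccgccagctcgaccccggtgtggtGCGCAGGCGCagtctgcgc
Of the 82 members, 67 had a promoter in that table, and the 250 bases before each start were searched on both strands. The pattern of NRF1, a regulator of nuclear genes for mitochondrial proteins, was found in 14 of 67 member promoters (20.9%), against 7.65% of 15842 protein-coding promoters. The ETS pattern CCGGAAG was found in 16 (23.9% against 11.8%), CCAAT in 24 (35.8% against 34.5%) and the E-box CACGTG, the MYC pattern, in 6 (8.96% against 7.84%). These are letter matches with no test, and they do not show that a factor binds.

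With AZ628 in WiDr more subunit genes rose than fell, by small amounts. At an adjusted p under 0.05, 31 members were higher with AZ628 and 9 were lower, where 23.4% of all genes were called higher and 21.1% lower. Among genes with mean signals of 10 or more these shares were 32.8% and 38.5%, and 31 (41.9%) and 8 (10.8%) of the 74 members at that level were called. The median log2 change over all 82 members was 0.11, against -0.0005 over all genes, and the range ran from -0.85 to 0.72. A change of at least 1.5-fold was seen in 3 members, against 19.6% of all genes and 26.6% of those with signals of 10 or more. The 3 AZ628 arrays lay above the 3 vehicle arrays for 47 members and below them for 14, where the shares over all genes were 26.5% and 24.6%.

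By complex, 15 of 35 complex I genes rose in WiDr and 5 fell (3 without vehicle replicate 1). Among the 3 complex II genes 2 rose, and in complex III 2 of 8 rose and 1 fell, with 1 rise left in each of the 6 fits without 1 array. Complex IV had 6 rises and no fall in 17 genes by limma (7 and 0 at an unadjusted p under 0.05), and complex V had 6 rises and 3 falls in 19. Rises were 42.9% of complex I, 66.7% of II, 25% of III, 35.3% of IV and 31.6% of V. Falls were 14.3%, 0%, 12.5%, 0% and 15.8% in the same order. Of all genes with signals of 10 or more, 32.8% were called higher and 38.5% lower, so the rises of complexes III, IV and V lay near or below that share. The plot of changes by complex shows rises in each of the 5 complexes, with isolated larger falls in complexes III and V.

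**Figure D1:**
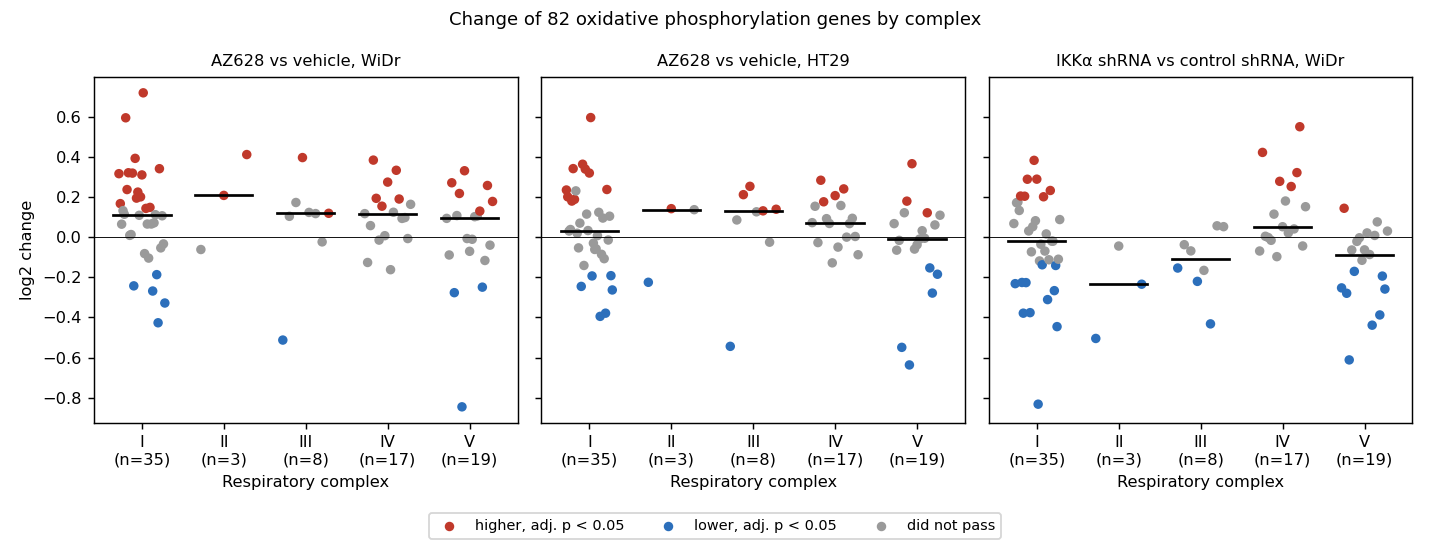
Log2 change of each of the 82 genes (points, vertical axis) by respiratory complex (horizontal axis, number of genes below), for AZ628 in WiDr, AZ628 in HT29 and IKKα shRNA in WiDr, each against its control; bars are medians and colours give the call at an adjusted p under 0.05. The extremes in WiDr are -0.85 and 0.72 with AZ628 and -0.83 and 0.55 with IKKα shRNA.

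The c ring held the largest fall and an opposite rise. ATP5MC1, ATP5MC2 and ATP5MC3 encode precursors that differ in their import sequence and yield the same mature c subunit. ATP5MC1 read 10.28, 10.26 and 10.17 with AZ628 in WiDr, against 11.28, 10.95 and 11.01 with vehicle. All 3 inhibited arrays were lower by more than the spread within either group, a log2 change of -0.85 (SE 0.09, adjusted p = 2.23e-07) or a signal 1.80-fold lower. ATP5MC2 read 12.78, 12.75 and 12.72 with AZ628, against 12.41, 12.45 and 12.40 with vehicle, so its arrays separated the other way (0.33, SE 0.05, adjusted p = 7.67e-06). ATP5MC3 differed by -0.01 (adjusted p = 0.923). ATP5MC1 and ATP5MC2 were each read by 1 probe set, and that of ATP5MC1 is of a kind that can bind several transcripts. Elsewhere in complex V, ATP5F1D, the δ subunit of the F1 stalk, fell by 0.28 (adjusted p = 0.00583), ATP5F1C, the γ subunit at its axis, rose by 0.27 (adjusted p = 0.0013, but 0.0876 on the averaged reading, at 0.19), and the catalytic subunit gene ATP5F1B differed by -0.09 (adjusted p = 0.161).

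CYC1, which encodes cytochrome c1, the electron carrier of complex III that hands electrons to cytochrome c, also fell in WiDr. It read 12.04, 11.999 and 12.04 with AZ628, against 12.60, 12.53 and 12.49 with vehicle, with no overlap (-0.51, SE 0.05, adjusted p = 3.48e-07), and its 3 probe sets gave changes between -0.59 and -0.50. UQCRB, a small subunit near the ubiquinone site of the same complex, rose by 0.40 (adjusted p = 0.000258), or by 0.69 on the restricted reading. The core proteins UQCRC1 and UQCRC2 each differed by 0.12 and did not pass (adjusted p = 0.167 and 0.07).

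Complex I contained the largest rise. NDUFB5, an accessory subunit of the membrane arm, read 11.52, 11.61 and 11.46 with AZ628 in WiDr, against 10.90, 10.70 and 10.84 with vehicle. The groups stood clear of each other (0.72, SE 0.07, adjusted p = 2.05e-07), and its other probe set gave 0.74. NDUFA2, a small accessory subunit of the matrix arm, read 11.44, 11.39 and 11.38 with AZ628, against 10.90, 10.79 and 10.74 with vehicle (0.59, SE 0.06, adjusted p = 1.01e-07). NDUFB1, another accessory subunit of the membrane arm, rose by 0.39 (adjusted p = 8.84e-05). In the opposite direction NDUFS6, an accessory subunit of the matrix arm that binds zinc, read 11.90, 11.95 and 12.01 with AZ628, against 12.36, 12.38 and 12.39 with vehicle (-0.43, SE 0.05, adjusted p = 5.59e-07). NDUFV3 fell by 0.33 (adjusted p = 1.93e-05, but -0.03 with adjusted p = 0.683 on the averaged reading) and NDUFA9 by 0.24 (adjusted p = 0.000633). Of the 6 core subunit genes of complex I measured, all of the matrix arm, NDUFS7 rose by 0.34 (adjusted p = 0.000377), or by 0.21 on the averaged reading. NDUFS1, the largest of them, had a change of -0.27 (adjusted p = 0.0392), a call that was lost both without AZ628 replicate 3, at an adjusted p of 0.196, and without vehicle replicate 1, at 0.202, as well as with the replicate number as a block (0.0545) and with only the 6 arrays compared (0.0669).

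**Figure D2:**
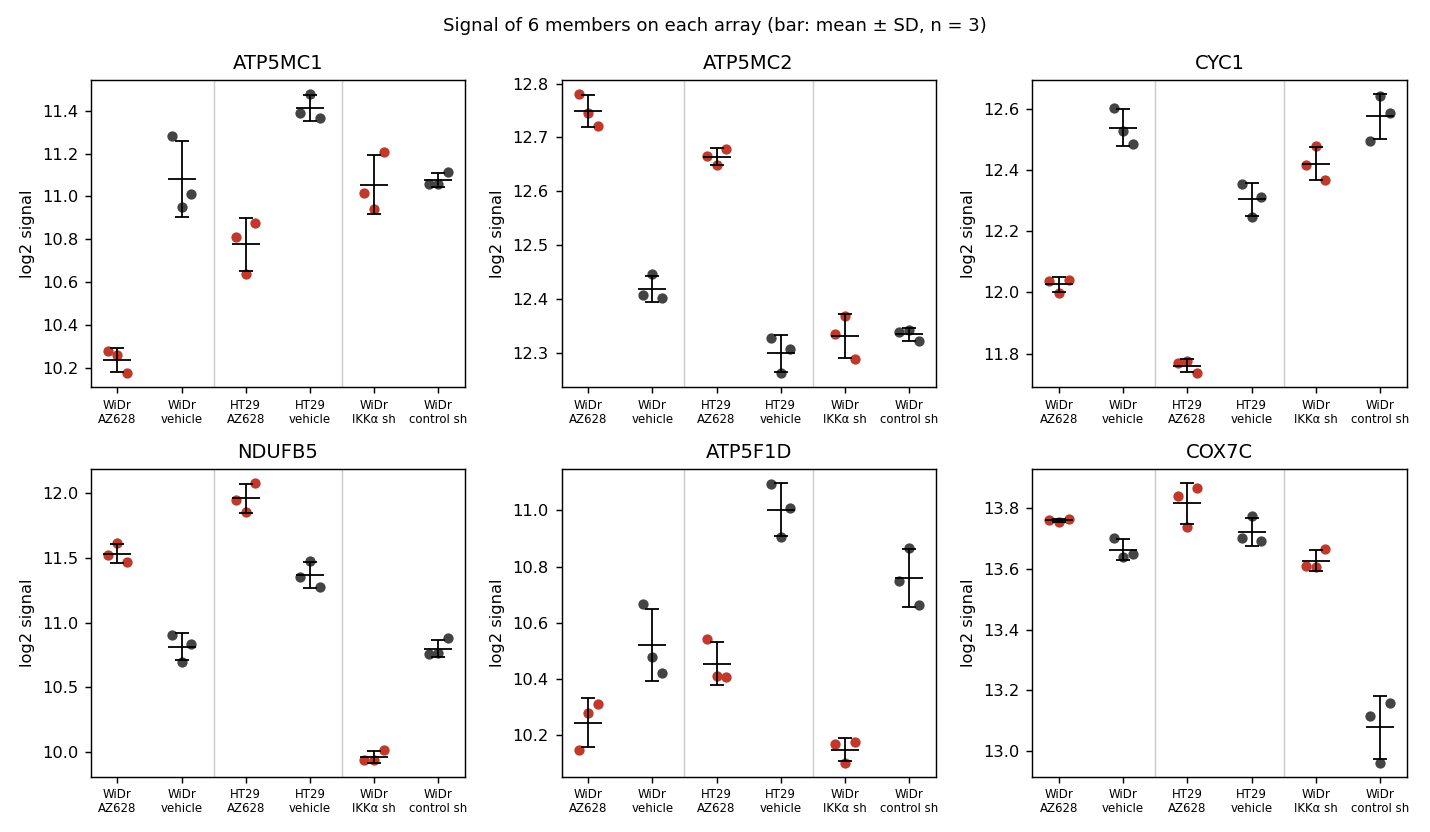
Log2 signal (vertical axis, own scale per panel) of ATP5MC1, ATP5MC2, CYC1, NDUFB5, ATP5F1D and COX7C on every array, by group (horizontal axis); points are arrays, horizontal lines means and bars ± SD of 3 arrays. ATP5MC1 and CYC1 are lower and ATP5MC2 and NDUFB5 higher with AZ628 in both lines, NDUFB5 and ATP5F1D are lower with IKKα shRNA, and COX7C stands low in the control shRNA arrays.

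In complexes II and IV the calls in WiDr were rises. SDHD, a membrane anchor of succinate dehydrogenase, read 12.01, 12.07 and 11.93 with AZ628, against 11.64, 11.54 and 11.61 with vehicle (0.41, SE 0.06, adjusted p = 1.68e-05). SDHC, the other anchor, rose by 0.21 (adjusted p = 0.0031), or -0.0068 on the restricted reading, whereas SDHA, the flavoprotein that oxidises succinate, differed by -0.06 (adjusted p = 0.402). COX5B, a matrix-side subunit of complex IV, read 12.55, 12.46 and 12.47 with AZ628, against 12.20, 12.05 and 12.08 with vehicle (0.38, SE 0.06, adjusted p = 1.72e-05). The regulator genes COX7A2L (0.33, adjusted p = 7.25e-06) and ATP5IF1 (0.22, adjusted p = 0.0026) rose as well. Leaving out any 1 array kept 31 of the 40 member calls in WiDr.

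In HT29 the response was also mixed and small. With AZ628, 22 members were higher and 13 lower, where 22.5% of all genes were called higher and 21% lower. Of the 74 members with signals of 10 or more 29.7% and 16.2% were called, against 29.7% and 40.1% of all genes at that level. After a further quantile normalization the counts were 30 and 7. The median over the members was 0.06, against 0.0048 over all genes, and 2 members changed at least 1.5-fold, where 17.4% of all genes did. ATP5MC1 again had the largest fall, reading 10.81, 10.64 and 10.88 with AZ628, against 11.39, 11.48 and 11.37 with vehicle (-0.64, SE 0.09, adjusted p = 7.91e-06). Its paralogue ATP5MC2 read 12.66, 12.65 and 12.68 with AZ628, against 12.33, 12.26 and 12.31 with vehicle, again higher on every inhibited array (0.37, SE 0.05, adjusted p = 2.62e-06). ATP5F1D read 10.54, 10.41 and 10.41 with AZ628, against 11.09, 10.91 and 11.01 with vehicle (-0.55, SE 0.08, adjusted p = 9.38e-06). CYC1 read 11.77, 11.78 and 11.74 with AZ628, against 12.35, 12.25 and 12.31 with vehicle, with all inhibited arrays lower (-0.54, SE 0.05, adjusted p = 1.94e-07). NDUFB5 read 11.94, 11.85 and 12.07 with AZ628, against 11.35, 11.47 and 11.27 with vehicle, and was again the largest rise (0.595, SE 0.07, adjusted p = 2.39e-06, but 0.40 with adjusted p = 0.057 on the restricted reading).

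By complex, 10 of 35 complex I genes rose in HT29 and 6 fell, including NDUFS1 (-0.40, adjusted p = 0.00369, or -0.25 on the averaged reading) and NDUFS6 (-0.38, adjusted p = 2.68e-06). Among the rises, NDUFA2 changed by 0.32 to 0.36 and NDUFB1 by 0.30 to 0.44 over the 6 fits without 1 array. NDUFB11 changed by 0.30 to 0.36 and NDUFB4 by 0.26 to 0.35 over the same fits, and each of these calls held. In complex II SDHA fell by 0.23 (adjusted p = 0.00195), which did not pass after a further quantile normalization (-0.14, adjusted p = 0.0884) and was -0.58 on the restricted reading. SDHC had a change of 0.14 (adjusted p = 0.037), lost in each of the 6 fits without 1 array (adjusted p up to 0.0961) and with the replicate number as a block (0.0509). Complex III had 4 rises and 1 fall. Its rises numbered 1 without AZ628 replicate 1, and 2 without AZ628 replicate 2, vehicle replicate 2 or vehicle replicate 3. UQCR11 was 1 of the rises (0.21, adjusted p = 0.0324), but another of its probe sets passed as a fall (-0.23). The averaged reading of UQCR11 gave -0.0082 (adjusted p = 0.914). UQCRC2, also among the rises (0.13, adjusted p = 0.0439), gave 0.06 on the averaged reading and -0.0070 on the restricted one, and passed on neither. Complex IV had 4 rises and no fall by limma (5 and 0 at an unadjusted p under 0.05). Complex V had 3 rises and 5 falls, with 2 and 3 left without AZ628 replicate 2, 1 and 5 without vehicle replicate 1 and 3 and 3 without vehicle replicate 2. In complex V the peripheral stalk, which holds the F1 head still, had 2 falls among 4 genes, or 1 without AZ628 replicate 2 or vehicle replicate 2. Among them was ATP5PB, its b subunit (-0.28, adjusted p = 0.000155), which did not pass on the averaged reading (-0.13, adjusted p = 0.124) or on the restricted one (-0.12, adjusted p = 0.429). Rises were 28.6% of complex I, 33.3% of II, 50% of III, 23.5% of IV and 15.8% of V. Falls were 17.1%, 33.3%, 12.5%, 0% and 26.3% in the same order. Of all genes with signals of 10 or more, 29.7% were called higher and 40.1% lower. Leaving out any 1 array kept 23 of the 35 member calls.

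The AZ628 comparisons of HT29 and WiDr share no arrays. Of the members that passed in both lines, 19 were higher in both (of 22 in HT29 and 31 in WiDr), 8 were lower in both (of 13 in HT29 and 9 in WiDr) and 0 passed in opposite directions. Across the 82 genes, which are not independent replicates, the changes correlated at r = 0.878 (Pearson) and rho = 0.807 (Spearman). The overlap and the correlations were not computed over all genes, so this agreement is not shown to be particular to the members. The difference itself, HT29 minus WiDr, passed for 2 members below 0 and 0 above, where 5.13% and 4.06% of all genes were called. At an unadjusted p under 0.05 limma gave 15 members below 0 and 0 above, and the share of all genes at that threshold was not computed. The median difference was -0.04 over the 74 members with signals of 10 or more, against -0.03 over all genes of that level. NDUFB10, an accessory subunit of complex I, read 11.45, 11.32 and 11.48 with AZ628 in HT29, against 11.54, 11.60 and 11.54 with vehicle. In WiDr it read 11.42, 11.45 and 11.39 with AZ628, against 11.29, 11.19 and 11.21 with vehicle. The HT29 arrays moved down (-0.14, adjusted p = 0.053) and the WiDr arrays up (0.19, adjusted p = 0.00882), a difference of -0.34 (SE 0.08, adjusted p = 0.012). For ATP5F1C the change was -0.02 in HT29 and 0.27 in WiDr, a difference of -0.29 (SE 0.09, adjusted p = 0.0478). That call was lost in 9 of the 12 fits that left out 1 array of these 4 groups, with adjusted p up to 0.126, and on the averaged reading (-0.23, adjusted p = 0.326).

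**Figure D3:**
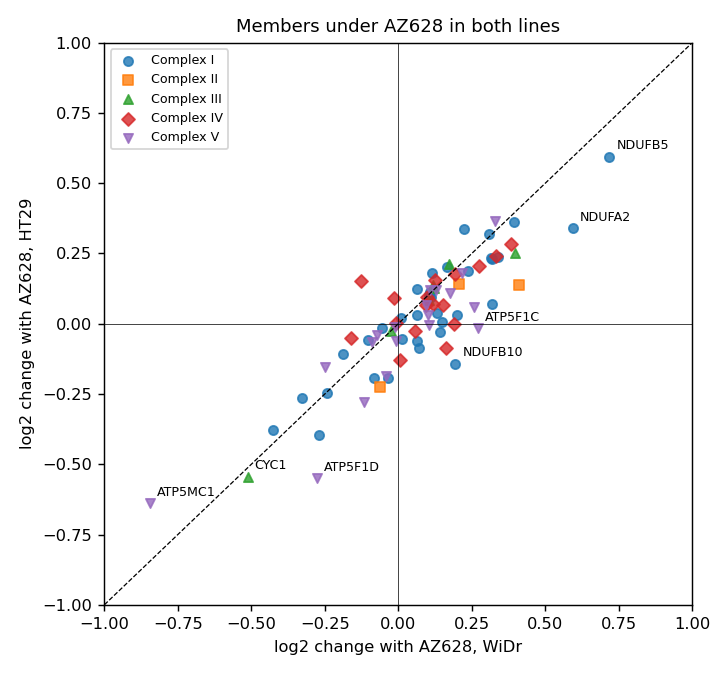
Log2 change with AZ628 in HT29 (vertical axis) against that in WiDr (horizontal axis) for the 82 genes, with colour and shape by complex and the dashed line where both are equal. Points lie along the line from ATP5MC1 (-0.64 in HT29, -0.85 in WiDr) to NDUFB5 (0.595 in HT29, 0.72 in WiDr), and NDUFB10 and ATP5F1C lie under it.

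With IKKα shRNA more members were lower than higher, at a share close to that of equally bright genes. Against control shRNA, 13 members were higher and 24 lower with IKKα shRNA, where 15.9% of all genes were called higher and 19% lower. Among genes with signals of 10 or more these shares were 19.7% and 31.7%, and 10 (13.5%) and 23 (31.1%) of the 74 members at that level were called. The median over all members was -0.03, against 0.02 over all genes. Over the 74 members it was -0.04, against -0.05 over genes of that level. A change of at least 1.5-fold was seen in 2 members, where 10.2% of all genes had one. At signals of 12 or more the share was 4.77% of all genes, and 0 of 40 members changed that much. The 3 IKKα shRNA arrays lay above the 3 control shRNA arrays for 22 members and below them for 32, against 23.3% and 23.4% of all genes. Leaving out any 1 array kept 24 of the 37 member calls.

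Because vehicle-treated WiDr was also measured, the IKKα shRNA arrays could be set against a further group. Against vehicle 10 members were higher and 23 lower, where 16.4% and 19.8% of all genes were called. At signals of 10 or more these shares were 22.3% and 28.8%, and 12.2% and 31.1% of the 74 members at that level were called. Control shRNA differed from vehicle in 6 members higher and 4 lower (11.6% and 10.6% of all genes), or 2 and 8 after a further quantile normalization. These comparisons share the IKKα shRNA, control shRNA or vehicle arrays in pairs, so the changes of each member are given side by side.

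NDUFB5, the largest rise with AZ628, was the largest fall with IKKα shRNA. It read 9.94, 9.94 and 10.02 with IKKα shRNA, against 10.76, 10.76 and 10.88 with control shRNA, and the 2 groups stood well apart (-0.83, SE 0.07, adjusted p = 7.33e-08). Against vehicle the change was -0.85, control shRNA differed from vehicle by -0.01, and the other probe set of the gene gave -0.93 against control shRNA. NDUFB1 read 12.09, 12.04 and 12.09 with IKKα shRNA, against 12.47, 12.45 and 12.42 with control shRNA (-0.38, SE 0.07, adjusted p = 0.000226, and -0.36 against vehicle). NDUFB2, also of the membrane arm, went the other way, reading 12.48, 12.52 and 12.45 with IKKα shRNA, against 12.06, 12.14 and 12.10 with control shRNA (0.38, SE 0.05, adjusted p = 5.23e-06, and 0.51 against vehicle). NDUFB4 rose by 0.29 (adjusted p = 0.00153, and 0.23 against vehicle). NDUFA8 also rose by 0.29 (adjusted p = 0.000387), but its averaged reading gave -0.07 (adjusted p = 0.614).

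Of the 6 core subunit genes of complex I measured, 4 fell against control shRNA and 5 against vehicle, and 0 rose by limma (0 higher in either comparison at an unadjusted p under 0.05). The falls against control shRNA numbered 2 without replicate 1 or 2 of either group and after a further quantile normalization, and those against vehicle numbered 3 on the averaged reading. Of all genes 19% were called lower against control shRNA and 19.8% against vehicle, or 31.7% and 28.8% of those with signals of 10 or more. NDUFV1, which carries the flavin that takes electrons from NADH, read 10.12, 10.11 and 10.04 with IKKα shRNA, against 10.52, 10.60 and 10.50 with control shRNA. All knockdown arrays were lower (-0.45, SE 0.07, adjusted p = 2.96e-05, and -0.39 against vehicle). NDUFS7, an iron-sulphur subunit next to the ubiquinone site, fell by 0.27 (adjusted p = 0.00458, and -0.40 against vehicle), but a further quantile normalization gave an adjusted p of 0.0564. NDUFS1 had a change of -0.31 against control shRNA (adjusted p = 0.0234) but 0.01 against vehicle (adjusted p = 0.928), since control shRNA stood 0.33 above vehicle. That fall was lost in 4 of the 6 fits without 1 array, with adjusted p up to 0.0819. Over complex I as a whole 7 genes rose and 11 fell, or 20% and 31.4%, against 19.7% and 31.7% of all genes with signals of 10 or more.

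In complex II, 2 of 3 genes fell with IKKα shRNA. SDHA read 11.51, 11.51 and 11.38 with IKKα shRNA, against 11.97, 12.04 and 11.91 with control shRNA, with clear separation (-0.51, SE 0.05, adjusted p = 6.79e-07). Against vehicle the change was -0.32 (adjusted p = 0.000118). Its second probe set gave -0.50 and a further, dim one 0.71, so that the averaged reading gave -0.10 (adjusted p = 0.308). SDHD fell by 0.23 (adjusted p = 0.00525, and -0.20 against vehicle). In complex III, UQCRC2, a core protein, read 11.73, 11.68 and 11.67 with IKKα shRNA, against 12.14, 12.12 and 12.13 with control shRNA (-0.43, SE 0.05, adjusted p = 2.02e-06, and -0.37 against vehicle). The complex had 3 falls and no rise by limma (4 and 0 at an unadjusted p under 0.05). Of these 1 was left without IKKα shRNA replicate 3, control shRNA replicate 2 or control shRNA replicate 3, and after a further quantile normalization. Falls were 66.7% of complex II and 37.5% of complex III, against 31.7% of all genes with signals of 10 or more.

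In complex V, 8 of 19 genes fell with IKKα shRNA and 1 rose. These are 42.1% and 5.26%, against 31.7% and 19.7% of all genes with signals of 10 or more. Without IKKα shRNA replicate 1 or 2 or control shRNA replicate 3 the falls numbered 5. ATP5F1D read 10.17, 10.10 and 10.17 with IKKα shRNA, against 10.75, 10.87 and 10.66 with control shRNA, the largest fall in the complex (-0.61, SE 0.08, adjusted p = 4.61e-06). Against vehicle it was -0.37, as control shRNA stood 0.24 above vehicle. ATP5PB read 12.90, 12.79 and 12.82 with IKKα shRNA, against 13.20, 13.22 and 13.25 with control shRNA (-0.39, SE 0.05, adjusted p = 7.09e-06, and -0.51 against vehicle). The restricted reading of ATP5PB, from a dim probe set, gave -0.06 (adjusted p = 0.737), and 0.0088 against vehicle. Among the 4 peripheral stalk genes 3 fell (1 of 3 on the restricted reading), and among the 5 genes of the F1 head and its central stalk 3 fell. ATP5F1B of the head had a change of 0.14 (adjusted p = 0.0293), a call lost in 5 of the 6 fits without 1 array, with adjusted p up to 0.093. ATP5F1A, the α subunit of the F1 head, fell by 0.25 (adjusted p = 0.000598, and -0.19 against vehicle). The c ring genes differed by -0.02 for ATP5MC1, -0.0036 for ATP5MC2 and -0.12 for ATP5MC3, and 0 of the 3 passed by limma (1 lower and 0 higher at an unadjusted p under 0.05).

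Complex IV had 5 rises with IKKα shRNA against control shRNA and no fall by limma (5 and 1 at an unadjusted p under 0.05), or 3 rises without control shRNA replicate 2. The 5 rises are 29.4% of the complex, against 15.9% of all genes and 19.7% of those with signals of 10 or more. The largest, in the small subunit gene COX7C, came with the control shRNA arrays. COX7C read 13.61, 13.61 and 13.67 with IKKα shRNA, against 13.11, 12.96 and 13.16 with control shRNA (0.55, SE 0.06, adjusted p = 5.82e-07). Vehicle arrays read 13.70, 13.64 and 13.65, so IKKα shRNA differed from vehicle by -0.04 (adjusted p = 0.667) and control shRNA by -0.59 (adjusted p = 2.71e-06). COX7A2L rose against control shRNA (0.25, adjusted p = 0.000255) and against vehicle (0.21, adjusted p = 0.00132). The other 3 rises were in the dim isoform genes COX4I2, COX6B2 and COX7B2.

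Complex IV signals were high for the common isoform genes and low for the restricted ones. COX4I1, COX6A1, COX6B1, COX7A2 and COX8A had mean signals in every group above 12, whereas COX4I2, COX6A2, COX6B2, COX7A1, COX7B2 and COX8C lay under 7. Levels of different probe sets are not on a common scale, so these values describe brightness and not a ratio. With AZ628 none of the 7 restricted isoform genes, ATP5MGL of complex V included, passed in either line by limma (0 higher and 0 lower in HT29, and 1 and 0 in WiDr, at an unadjusted p under 0.05). COX4I2 read 5.38, 5.15 and 5.10 with IKKα shRNA, against 4.79, 4.74 and 4.83 with control shRNA (0.42, adjusted p = 0.00878, and 0.11 with adjusted p = 0.494 against vehicle). Its call was lost without IKKα shRNA replicate 1 (adjusted p = 0.0544). COX6B2 had changes of 0.28 against control shRNA (adjusted p = 0.0118), 0.06 on the averaged reading (adjusted p = 0.393), lost without control shRNA replicate 2 (adjusted p = 0.0718) or IKKα shRNA replicate 2 (adjusted p = 0.0804), and -0.21 against vehicle (adjusted p = 0.0542). COX7B2 (0.32, adjusted p = 0.0133) and ATP5MGL (-0.44, adjusted p = 0.0479) passed as well, but these calls were lost in 3 and in 6 of the 6 fits without 1 array. Among the common forms COX6A1 had changes with AZ628 of 0.18 in HT29 (adjusted p = 0.00467) and 0.19 in WiDr (adjusted p = 0.00212). Neither held on the averaged reading (0.10 in HT29, adjusted p = 0.261, and -0.0057 in WiDr) or the restricted one (0.02 in HT29, adjusted p = 0.915, and -0.20 in WiDr). COX6B1 had a change of 0.15 in WiDr (adjusted p = 0.00671), which did not pass after a further quantile normalization (adjusted p = 0.099) or with only the 6 arrays compared (0.0635).

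Assembly factors, which build the complexes but are not part of them, had larger changes with AZ628 than the subunit genes, and mostly falls. Of 46 measured, 6 rose and 31 fell in HT29 (median -0.33), and 9 rose and 28 fell in WiDr (median -0.24). These are 13% and 67.4% of the list in HT29, against 22.5% and 21% of all genes, and 19.6% and 60.9% in WiDr, against 23.4% and 21.1%. Of all genes with signals of 10 or more, 29.7% and 40.1% were called in HT29 and 32.8% and 38.5% in WiDr. The list was not matched for signal, and it was chosen with earlier results of these data known, so its shares are a description and not a test. NDUFAF4, an assembly factor of complex I, changed by -1.76 in HT29 (adjusted p = 5.82e-11) and by -2.01 in WiDr (adjusted p = 7.56e-12). NDUFAF2, which acts on the same complex, had changes of -1.43 in HT29 and -1.78 in WiDr, and COA7, for complex IV, had -1.51 in HT29 and -1.63 in WiDr. SURF1, another complex IV factor, rose in HT29 (0.47) and in WiDr (0.43). With IKKα shRNA 7 assembly factors rose and 11 fell (15.2% and 23.9%, against 15.9% and 19% of all genes, median -0.04), or 13 and 10 after a further quantile normalization. COX20, a chaperone for a mitochondrially encoded subunit of complex IV, fell by 0.76 (adjusted p = 5.75e-07).

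Among 17 regulators of mitochondrial DNA and biogenesis, 0 rose and 11 fell with AZ628 in HT29 by limma (0 and 12 at an unadjusted p under 0.05), and 2 rose and 12 fell in WiDr (1 rise without AZ628 replicate 1 or 2 or vehicle replicate 2). The falls are 64.7% of the list in HT29, against 21% of all genes, and 70.6% in WiDr, against 21.1%. At signals of 10 or more 40.1% of all genes were lower in HT29 and 38.5% in WiDr. This list, too, was not matched for signal and was chosen with earlier results of these data known. PPRC1, a coactivator related to PGC-1α, had a change of -2.20 in HT29 and of -2.82 in WiDr. TWNK, the mitochondrial DNA helicase, fell in HT29 (-1.89) and in WiDr (-2.32), and so did TFAM, which packages mitochondrial DNA (-1.01 in HT29, -1.16 in WiDr). PPARGC1A, which encodes PGC-1α, differed between the lines. It read 8.25, 8.49 and 8.30 with AZ628 in HT29, against 8.31, 8.30 and 8.45 with vehicle, a change of -0.01 (adjusted p = 0.978). In WiDr it read 7.92, 8.01 and 7.96 with AZ628, against 5.46, 5.95 and 5.72 with vehicle (2.25, SE 0.10, adjusted p = 6.55e-12). The difference of the effects, HT29 minus WiDr, was -2.26 (SE 0.15, adjusted p = 3.05e-08). On the averaged reading the change in WiDr was 0.85 and the difference -0.96, and both passed. With IKKα shRNA 3 regulators rose and 2 fell (17.6% and 11.8%, against 15.9% and 19% of all genes), and TFAM fell by 0.55 (adjusted p = 1.02e-05).

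Fuel supply to the chain was read from 22 genes of the tricarboxylic acid (TCA) cycle and pyruvate entry. With AZ628, 5 rose and 10 fell in HT29 (median -0.06), and 11 rose and 6 fell in WiDr (median 0.10). These are 22.7% and 45.5% of the list in HT29, against 22.5% and 21% of all genes, and 50% and 27.3% in WiDr, against 23.4% and 21.1%. At signals of 10 or more the shares of all genes were 29.7% and 40.1% in HT29 and 32.8% and 38.5% in WiDr. For IKKα shRNA against control shRNA they were 19.7% and 31.7%. Again the list was not matched for signal and was chosen with earlier results of these data known. PDK4, a kinase that inactivates pyruvate dehydrogenase, rose in HT29 (0.86) and in WiDr (1.67), and the difference of the effects passed (-0.81, adjusted p = 0.000131), with rises of 0.38 in HT29 and 0.997 in WiDr on the averaged reading. MPC2, part of the mitochondrial pyruvate carrier, rose as well, in HT29 (0.9998) and in WiDr (1.16). PDK1, another kinase of the enzyme, changed by -0.74 in HT29 and by -1.06 in WiDr. With IKKα shRNA 2 genes rose and 12 fell (9.09% and 54.5%, against 15.9% and 19% of all genes, median -0.20), with a rise of 0.70 in IDH3A, a subunit of isocitrate dehydrogenase, and a fall of 0.72 in PDHX, of the pyruvate dehydrogenase complex. SUCLG2, of succinyl-CoA synthetase, had a change of -0.83, but of -0.05 on the restricted reading (adjusted p = 0.846). Among 12 other electron carriers and transporters, CYCS, cytochrome c itself, which accepts electrons from CYC1, changed by -0.66 in HT29 (adjusted p = 7.41e-07) and by -0.79 in WiDr (adjusted p = 6.26e-08). The restricted reading of CYCS gave -0.0037 in HT29 (adjusted p = 0.976) and -0.33 in WiDr (adjusted p = 0.00096).

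**Figure D4:**
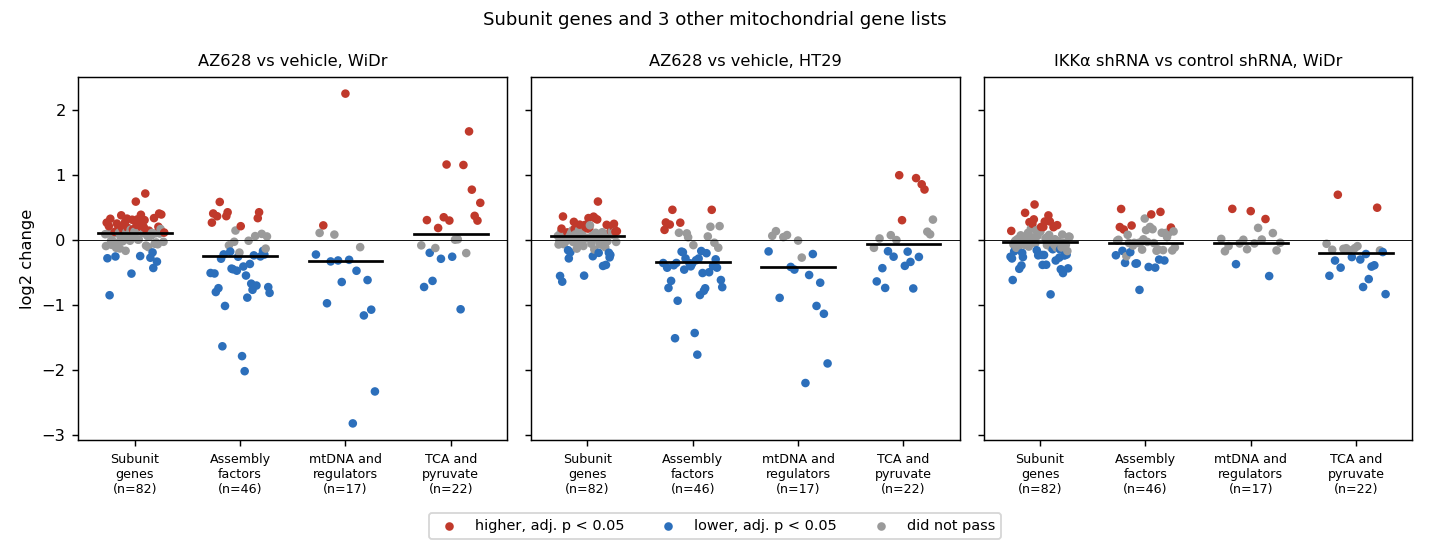
Log2 change (vertical axis) of the 82 subunit genes and of 3 lists of related genes (horizontal axis) in the same 3 comparisons; bars are medians and colours give the call at an adjusted p under 0.05. Subunit genes stay between -0.85 and 0.72, while the assembly factor NDUFAF4 reaches -2.01 and the regulator PPRC1 -2.82 with AZ628 in WiDr.

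The lines also differed without inhibitor. In HT29 with vehicle 30 members were higher and 8 lower than in WiDr with vehicle, where 16.9% and 15.3% of all genes were called (39.2% and 10.8% of the 74 members with signals of 10 or more, against 25.4% and 24.4% of all genes at that level). The median over the members was 0.10, against -0.0061 over all genes. On the brightest probe sets 0 members reached 1.5-fold, where 8.58% of all genes did, or 2.48% of those with signals of 12 or more. NDUFB5 read 11.35, 11.47 and 11.27 in HT29, against 10.90, 10.70 and 10.84 in WiDr, the largest difference on these probe sets (0.55, SE 0.07, adjusted p = 1.2e-05). UQCRB differed by -0.15 (adjusted p = 0.163), but by -0.50 on the averaged reading (adjusted p = 2.89e-05). Its restricted reading gave -0.72 (adjusted p = 7.88e-05), a larger difference than that of NDUFB5. NDUFS6 was higher in HT29 by 0.49 (adjusted p = 2.85e-07), ATP5F1D by 0.48 (adjusted p = 7.25e-05) and COX5B by 0.43 (adjusted p = 9.26e-06). NDUFB1 was lower in HT29 than in WiDr (-0.42, adjusted p = 9.3e-05), as was CYC1 (-0.23, adjusted p = 0.0026). The difference at baseline shares the vehicle arrays with the AZ628 comparisons of both lines.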

How the data were processed

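Gene expression was measured on 18 arrays. Per the submitters' processing notes the authors made the deposited log2 signals with RMA, and the notes also name limma and R 3.0.2. RMA gives the probe signals of every array the same distribution before they are summarized, so a shift shared by most genes is largely removed. It also understates folds at low signal. Small differences between arrays can remain: the median change over all genes was -0.0602 for IKKα shRNA and -0.0446 for control shRNA, each against vehicle. Quantile normalization again moved the AZ628 counts from 22 and 13 to 30 and 7 in HT29, and from 31 and 9 to 38 and 9 in WiDr. The labelling used 100 ng of RNA per array, per the labels' protocols. The genome build of the probe sets is not given in the sources used here.

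Of 49395 probe sets, 44994 had 1 gene symbol, 1832 several and 2569 none in the platform table, and each of 18132 genes was read from its brightest probe set. For 43.9% of the members (36 of 82) this was a probe set that can bind several transcripts. The values of the table had no unmapped sample columns (0). A model with 6 group means was fitted to all 18 arrays in R 4.3.3 with limma 3.58.1 (12 residual degrees of freedom, prior 4.49), followed by eBayes and two-sided Benjamini-Hochberg adjustment over all genes in each contrast, with a threshold of 0.05. Adjusted p-values throughout are limma's, changes are log2 differences of group means, and no dim genes were left out. Motifs and figures were made in Python 3.11.15 with pandas 2.3.3 and matplotlib 3.10.9.

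Tested on simulated data for AZ628 in WiDr (18132 genes, 200 changed), the fit recovered 23.9% of changes of 1.2-fold, 85.1% of 1.5-fold and 100% of 2-fold, with 7 false calls. In the data themselves 8079 genes (44.6%) were called in that comparison. The adjusted threshold depends on this share, so the simulated rates do not carry over to the data. The number of arrays, 3 per group, limits the precision. The members and gene lists were chosen with earlier results of these data known. By rule full values could be given for up to 6 rises and 6 falls per treatment and up to 5 differences between the lines in each direction. The rule also allows the SDH and c ring genes, isoform pairs, and members with opposed probe sets. Not every member that the rule allows is described in full. Other members are named by complex and role, and were chosen after their values were seen. The alternatives were other rules for probe sets, a filter on dim genes, quantile normalization again, fits on only the arrays of a contrast, a 1.5-fold minimum, the replicate number as a block and leaving out each array.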

Additional observations from a re-analysis of the deposited data

Results flagged for a closer look

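The AZ628 effect differed between the lines for 2 members by a test of the difference itself, HT29 minus WiDr. For NDUFB10 the difference was -0.34 (SE 0.08, adjusted p = 0.012 by limma), with all AZ628 arrays below all vehicle arrays in HT29 and above them in WiDr, and it kept its call in each of the 12 fits without 1 array. NDUFB10 also started higher in HT29 than in WiDr with vehicle, by 0.33 (adjusted p = 0.000158), and the part of that starting level was not tested. For ATP5F1C the difference was -0.29 (SE 0.09, adjusted p = 0.0478). It kept its direction in all 12 fits without 1 array but stayed past the threshold in only 3 of them, and its other probe sets gave -0.11 and -0.28 (adjusted p = 0.78 and 0.53).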

How the results depend on the processing

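Over all 82 members and comparisons, 6710 of 7254 recomputed gene values kept their direction and side of the threshold, 376 lost a call, 138 gained one and 30 changed sign where either value passed. With a 1.5-fold minimum the members counted higher and lower were 1 and 1 for AZ628 in HT29, 2 and 1 for AZ628 in WiDr, 0 and 2 for IKKα shRNA against control shRNA, 0 and 1 against vehicle, 0 and 1 for control shRNA against vehicle, and 0 and 0 for HT29 against WiDr with vehicle and for the difference of AZ628 effects; the minimum itself removes smaller changes. With fits on only the arrays of a contrast, 4 members were higher for IKKα shRNA against vehicle, 1 was higher and 2 lower for control shRNA against vehicle, 18 were higher and 5 lower for HT29 against WiDr, and 1 was lower for the difference. With quantile normalization again, 7 were lower for AZ628 in HT29, and 2 were higher and 8 lower for control shRNA. With probe sets averaged per gene 8 were lower for control shRNA and 4 for the difference. Without probe sets that bind several transcripts, which left 69 members, 3 were higher for control shRNA and 1 lower for the difference, and with dim genes left out, which left 77, 5 were lower for the difference. For these the cause was not tested.

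Without 1 array the counts higher and lower ranged over 17 to 19 and 10 to 13 for AZ628 in HT29, 25 to 29 and 7 to 9 for AZ628 in WiDr, 11 to 13 and 17 to 19 for IKKα shRNA against control shRNA, 3 to 11 and 21 to 22 against vehicle, 0 to 6 and 2 to 4 for control shRNA, 23 to 27 and 6 to 8 for HT29 against WiDr, and 0 to 0 and 1 to 4 for the difference. For IKKα shRNA against vehicle, 6 members were higher without vehicle replicate 2, 3 without vehicle replicate 3, 6 without IKKα shRNA replicate 1 and 5 without IKKα shRNA replicate 3. For control shRNA, 0 were higher without vehicle replicate 3 or control shRNA replicate 2, and 2 without vehicle replicate 2 or control shRNA replicate 1 or 3, while 2 were lower without control shRNA replicate 3.

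Deviations of arrays with the same replicate number correlated between -0.233 and 0.178, so the numbers do not pair the samples. With the replicate number as a block 19 members were higher and 12 lower for AZ628 in HT29, 30 and 8 in WiDr, 13 and 22 for IKKα shRNA against control shRNA, 10 and 23 against vehicle, 5 and 4 for control shRNA, 28 and 7 for HT29 against WiDr, and 0 and 1 for the difference.

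Among the genes that the rule allows to be given in full, some signs turned with another reading. With the mean of probe sets they turned for COX6A1 (-0.0057) and UQCR11 (-0.1618) with AZ628 in WiDr and UQCR11 in HT29 (-0.0082). They also turned for NDUFA8 with IKKα shRNA (-0.0713, and -0.0551 against vehicle) and NDUFV3 between the lines (-0.0394). Without probe sets that bind several transcripts they turned for COX6A1 (-0.2043) and SDHC (-0.0068) with AZ628 in WiDr, UQCRC2 in HT29 (-0.0070), COX4I1 (0.4340) and SDHA (0.7123) with IKKα shRNA, ATP5PB (0.0088), COX6A1 (-0.3255) and SDHA (0.4941) against vehicle, COX4I1 (-0.4296) and SDHA (-0.2181) for control shRNA, and COX6A1 between the lines (-0.0404). Each of these reads another probe set of the gene.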
